A study of Mus musculus with 4 samples.

Results

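The perineuronal net and matrix plasticity genes are 10 genes of the brain's extracellular matrix: the lecticans Acan, Bcan, Ncan and Vcan, the link protein Hapln1, the tenascins Tnc and Tnr, the matricellular gene Sparcl1, and the protease inhibitors Timp2 and Timp3. They were followed through every probe set of the array whose single gene symbol was 1 of these names. This gave 14 of the 12488 probe sets, for 9 of the 10 genes and of 8252 genes named on the array, and no probe set carried the name Tnr alone. RNA came from visual cortex of wild-type C57Bl6 mice, 5 in all, that were kept in darkness from birth until postnatal day 42, when 1 eye was removed. The animals then saw ordinary light and dark phases for 4 days, and tissue was taken at postnatal day 46. Cortex opposite the removed eye, which had lost the input of its main eye, is called deprived, and cortex on the same side as the removed eye is called non-deprived. Both groups therefore shared the dark rearing, the enucleation and the first light, and no light-reared, intact or still-dark group was analysed here. There were 2 arrays per group, each of RNA from pooled tissue, and the sources do not state which mice went into which array. The p-values therefore cover the spread between these 4 arrays alone, which may be partly technical.

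Perineuronal nets are lattices of matrix that wrap the cell bodies and proximal dendrites of certain neurons, in visual cortex above all the parvalbumin-positive inhibitory neurons. Hyaluronan chains on the cell surface carry lecticans, which are proteoglycans with chondroitin sulfate side chains. Link proteins fasten the lecticans to hyaluronan, and tenascins tie the lecticans' far ends together. The nets form as the critical period for ocular dominance closes, rearing in the dark delays them, and digestion of their chondroitin sulfate in adult visual cortex restores plasticity after an eye is closed. Secreted and membrane-bound proteases cut this matrix, and tissue inhibitors of metalloproteinases (TIMPs) hold them back. The comparison asks whether transcripts of these parts differed between cortex with and without its main eye when both first met light together.

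Signals are MAS5 intensities in arbitrary units, 1 per probe set and array. They can be compared between arrays for the same probe set, but not between probe sets. The arrays were similar in scale, with 2% trimmed means between 500.3 and 500.4 and medians between 189.9 and 245.7. The array least like the rest was deprived array 1, whose mean correlation with the other 3 was 0.91 where each of those had 0.93. Values of Acan, Ncan, Tnc, Timp3 and Itgav are also given without it. Fos, a transcription factor gene induced by neuronal firing, had signals of 1106.6 and 1352.3 in deprived samples 1 and 2, against 3019.4 and 3567.5 in non-deprived samples 1 and 2. Over the 7458 probe sets bright enough to test, limma called 8 lower and 0 higher after Benjamini-Hochberg adjustment (threshold 0.05), which is 0.107%. With the replicate number as a block the count was 40, or 0.536%.

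None of the net or matrix genes passed this test. Of the 14 probe sets, 5 were bright enough to be tested, 1 each for Bcan, Ncan, Sparcl1, Timp2 and Timp3, and the other 9 had a mean signal below 142.9, the 40th percentile of all probe sets. The largest differences among the tested ones were at the inhibitors and ran in opposite directions: Timp3 stood 1.58-fold higher and Timp2 1.34-fold lower in deprived cortex. The lecticans Bcan and Ncan and the matricellular gene Sparcl1 were within 1.18-fold of equality. At the unadjusted p under 0.05, which 405 of 7458 probe sets reached (5.43%), stood 2 of the 5, Timp3 higher and Timp2 lower. That count of 2 did not hold throughout: it was 0 without deprived array 1, without non-deprived array 1 or without a variance trend, and 1 without non-deprived array 2 or with arrays scaled to a common median. The smallest adjusted p among the 5 was 0.78, and 0.35 with the replicate block. In bulk tissue such as this, fewer cells of a type and less RNA per cell cannot be told apart.

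**Figure D1:**
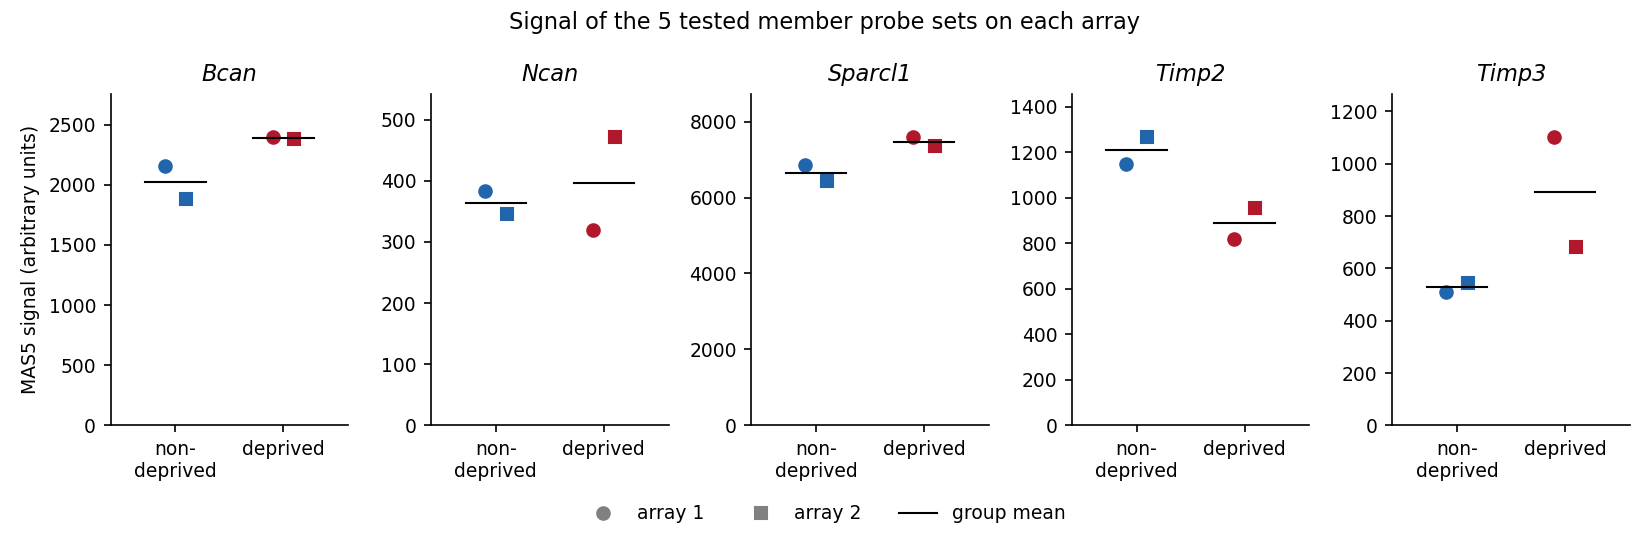
MAS5 signal (y axis, arbitrary units, from 0) of the 5 tested probe sets on each array, non-deprived in blue and deprived in red; circles are array 1, squares array 2 and lines group means. Deprived arrays lie above both non-deprived arrays for Bcan, Sparcl1 and Timp3 and below them for Timp2, and the groups overlap for Ncan.

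Among the lecticans, Bcan encodes brevican, a brain-specific proteoglycan made by glia and neurons that gathers in nets and around synapses. Its bright probe set (92700_at) read 2398.7 and 2379.2 in deprived samples 1 and 2, against 2157.2 and 1885.5 in non-deprived samples 1 and 2. Both deprived arrays were higher than both non-deprived ones, and they lay closer together than the non-deprived pair. The group means were 2389 ± 13.8 and 2021 ± 192 (SD, n = 2 per group), and the log2 fold change was 0.24 ± 0.17 (SE; adjusted p = 0.999 in limma). Its 95% interval ran from 0.915-fold to 1.52-fold, so a doubling of the Bcan signal lay outside it while a modest rise did not. The difference was 0.14 ± 0.27 without non-deprived array 2 and 0.33 ± 0.28 without non-deprived array 1 (SE, log2). The dim Bcan probe set (161996_f_at) had 70.2 and 125.7 on the deprived arrays against 40.9 and 59.1 on the non-deprived ones, again without overlap and higher in deprived cortex, at signals too low to test.

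Ncan encodes neurocan, a lectican of the developing brain that is partly retained in adult nets. Its brighter probe set (98798_at) read 319.2 and 471.8 in deprived samples 1 and 2, against 383.1 and 345 in non-deprived samples 1 and 2. Deprived array 1 held the lowest and deprived array 2 the highest of the 4 values, so the groups overlapped. The log2 fold change was 0.08 ± 0.30 (SE; adjusted p = 0.999 in limma), with a 95% interval from 0.670-fold to 1.68-fold. It was 0.33 ± 0.32 without deprived array 1 and -0.16 ± 0.34 without deprived array 2. The second Ncan probe set (98799_g_at), too dim to test, showed the same order within the deprived pair, 76.6 on array 1 and 153.7 on array 2, beside 98 and 136.8 on the non-deprived arrays. Both probe sets were annotated to the same database sequence, so they are no independent check of each other.

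Acan and Vcan were dim. Acan encodes aggrecan, the lectican most closely tied to mature nets. Its probe set read 195.8 and 18.6 on deprived arrays 1 and 2, a wide gap within 1 group, and 78.3 and 93.3 on the non-deprived arrays, which lay between them. Vcan encodes versican, found at nodes of Ranvier and in loose matrix. It read 84.1 and 181.3 on the deprived arrays and 68.7 and 52 on the non-deprived ones, with the deprived arrays higher and no overlap. Neither was tested in the main comparison. In a fit that kept all dim probe sets the log2 fold changes were -0.04 ± 0.58 for Acan and 0.63 ± 0.51 for Vcan (SE; adjusted p = 0.9999 in limma for each). The Acan interval then reached from 0.410-fold to 2.32-fold, so neither a halving nor a doubling could be told from equality at this signal. Without deprived array 1 the Acan value was -0.97 ± 0.53 (SE, log2; adjusted p = 0.82).

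Hapln1 encodes the link protein that joins aggrecan and its relatives to hyaluronan, and mice that lack it in the brain have weakened nets. Its probe set read 28.1 and 6.8 in deprived samples 1 and 2, against 17 and 88.1 in non-deprived samples 1 and 2. The 2 groups overlapped, and the non-deprived pair alone spanned most of the range. In the mouse assembly GRCm38.p6 each of the 4 lectican genes neighbours a link protein gene: Acan and Hapln3, Bcan and Hapln2, Ncan and Hapln4, and Vcan and Hapln1. Hapln2, Hapln3 and Hapln4 had no probe set naming them alone, so no pair could be compared at tested signals.

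Of the tenascins, Tnr, which is part of the nets, could not be followed. Tnc encodes tenascin-C, a glycoprotein of developing and injured tissue made by astrocytes. At 101993_at it read 220.4 and 66.6 on deprived arrays 1 and 2 and 43.6 on each non-deprived array. Deprived array 1 was far above the other 3, and both deprived values exceeded the non-deprived ones. At 162362_f_at the order turned, with 21.8 and 8.8 on the deprived and 55.6 and 17.7 on the non-deprived arrays, and the groups overlapped. The fit that kept all dim probe sets gave 0.86 ± 0.52 and -0.33 ± 0.32 (SE, log2), so the 2 Tnc probe sets disagreed in sign and neither passed (adjusted p = 0.9999 in limma for each). Without deprived array 1 they were 0.31 ± 0.50 and -0.52 ± 0.40.

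**Figure D2:**
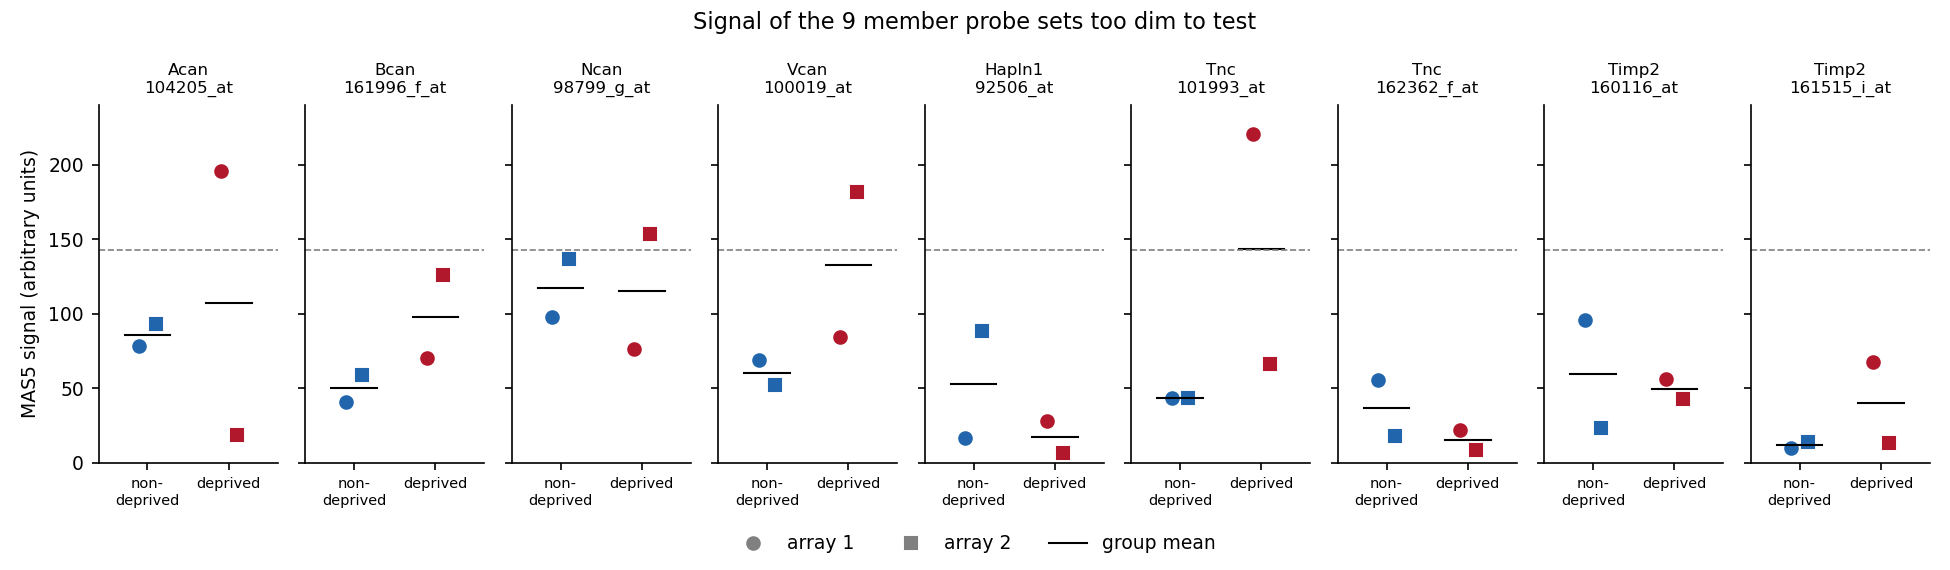
MAS5 signal (y axis, arbitrary units, from 0) of the 9 probe sets too dim to test, with symbols and colours as for the tested ones; the dashed line is the mean signal of 142.9 needed for testing. The groups overlap at 6 of the 9, and at Bcan, Vcan and Tnc (101993_at) both deprived arrays are higher.

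Sparcl1 encodes hevin, a secreted astrocyte protein that promotes the formation of excitatory synapses, in visual cortex those of thalamic axons. It read 7599 and 7345.3 in deprived samples 1 and 2, against 6863 and 6434.6 in non-deprived samples 1 and 2. Both deprived arrays were higher, by a margin slightly wider than the gap within either pair. The means were 7472 ± 179 and 6649 ± 303 (SD, n = 2 per group), and the fit gave a log2 difference of 0.17 ± 0.18 (SE; adjusted p = 0.999 in limma). The 95% interval from 0.861-fold to 1.47-fold did not reach a doubling.

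Timp3 encodes the inhibitor that binds to the matrix itself and blocks several metalloproteinases of the ADAM and ADAMTS families besides the matrix metalloproteinases. Its single probe set (160519_at) read 1102.8 and 680.5 in deprived samples 1 and 2, against 510.5 and 545.1 in non-deprived samples 1 and 2. Both deprived arrays were higher, but they differed from each other by more than deprived array 2 differed from either non-deprived array. The means were 892 ± 299 and 528 ± 24.5 (SD, n = 2 per group), and the log2 fold change was 0.66 ± 0.25 (SE), with a 95% interval from 1.08-fold to 2.32-fold, an unadjusted p of 0.024 and an adjusted p of 0.78 in limma. In pairs of arrays the difference was 1.03 and 0.94 on the log2 scale with deprived array 1, and 0.38 and 0.29 with deprived array 2. The fit without deprived array 1 gave 0.34 ± 0.27 (adjusted p = 0.80) and the fit lacking deprived array 2 gave 0.98 ± 0.26 (adjusted p = 0.060), so 1 array set much of its size. The gene lies within the span of the synapsin gene Syn3 in GRCm38.p6, and no probe set named Syn3 alone.

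Timp2 encodes an inhibitor that is abundant in brain and that also takes part in the activation of the metalloproteinase Mmp2. Its bright probe set (93507_at) read 821.1 and 955.2 in deprived samples 1 and 2, against 1149.7 and 1268.9 in non-deprived samples 1 and 2. Both deprived arrays were lower, and the gap between the groups was wider than the gap within either pair. The means were 888 ± 94.8 and 1209 ± 84.3 (SD, n = 2 per group), and the log2 fold change was -0.42 ± 0.19 (SE; unadjusted p = 0.048, adjusted p = 0.91 in limma). On the fold scale Timp2 was 1.34-fold lower, with a 95% interval from 1.00-fold to 1.79-fold lower. All 4 pairs of arrays were below 0, from -0.25 to -0.59 on the log2 scale. The other Timp2 probe sets were dim and did not repeat this: 160116_at read 56.3 and 42.8 on the deprived and 96 and 23.2 on the non-deprived arrays, and 161515_i_at read 67.7 and 13.2 against 9.8 and 13.9. Both overlapped between groups.

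The promoters of these inhibitor genes are shown because theirs were the largest differences among the tested members and ran in opposite directions, while Fos, whose protein is a subunit of the transcription factor AP-1, fell on the same arrays (log2 fold change -1.38 ± 0.18, adjusted p = 0.020 in limma). The sequences are from RefSeq, in GRCm38.p6, from 250 bases before to 50 bases after the annotated start, 5′ to 3′ on the gene's strand. Timp2 is on the minus strand at chr11:118355362-118355661 and Timp3 on the plus strand at chr10:86300162-86300461. Capitals mark matches to the GC box, GGGCGG, on either strand.
Timp2: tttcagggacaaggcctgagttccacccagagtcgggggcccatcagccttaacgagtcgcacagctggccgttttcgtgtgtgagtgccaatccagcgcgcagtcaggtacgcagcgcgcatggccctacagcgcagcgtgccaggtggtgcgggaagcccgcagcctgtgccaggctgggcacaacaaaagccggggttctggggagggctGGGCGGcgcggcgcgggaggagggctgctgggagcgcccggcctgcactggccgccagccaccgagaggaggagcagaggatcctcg
Timp3: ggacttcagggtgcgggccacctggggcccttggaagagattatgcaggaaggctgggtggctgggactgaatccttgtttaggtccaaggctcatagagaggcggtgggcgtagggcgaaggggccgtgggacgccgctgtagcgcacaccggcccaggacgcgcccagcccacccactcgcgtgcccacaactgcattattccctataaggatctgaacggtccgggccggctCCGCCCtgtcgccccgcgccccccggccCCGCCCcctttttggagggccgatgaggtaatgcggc
The Timp2 window holds 1 GC box and the Timp3 window 2, a motif found in 35.7% of the 32851 RefSeq promoter windows of this length. Neither window holds a match on either strand to AP-1 (TGANTCA), to the cAMP response element (TGACGTCA), to the E-box CACGTG or to the TATA box letters TATAAA, which occur in 7.81%, 1.79%, 7.15% and 13.6% of the windows. The GC content was 68.7% for Timp2 and 67.0% for Timp3, with a median of 52.7% over all windows. The motifs searched thus gave no difference between the inhibitors beyond the number of GC boxes, and no other motif was looked for. A missing match says only that these letters do not stand in this window.

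**Figure D3:**
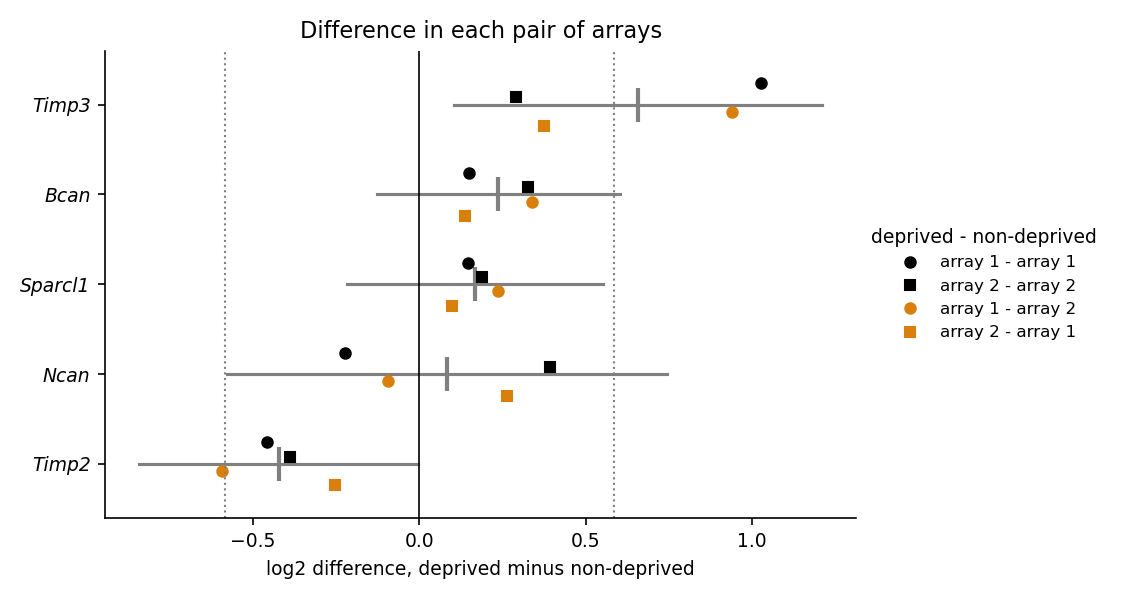
Log2 difference in signal (x axis, deprived minus non-deprived) of the 5 tested probe sets in each of the 4 pairs of arrays, black for same-numbered and orange for crossed pairs; grey bars are the limma estimate with its 95% interval, and dotted lines mark 1.5-fold. Timp3, Bcan and Sparcl1 are above 0 and Timp2 below 0 in all 4 pairs, and Ncan changes sign with the deprived array.

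Read as a group, the 5 tested probe sets had a median log2 fold change of 0.17, against 0.001 over all tested probe sets, and a median size regardless of sign of 0.24, against 0.19. The median of 0.17 is the value of Sparcl1. The members were chosen with earlier results of these data known, so comparisons with all probe sets are description and no test. The group median was 0.15, 0.24, 0.14 and 0.29 in the 4 pairs of arrays. The groups did not overlap for 4 of the 5, against 32.2% of all tested probe sets. For 3 of the 5 both deprived arrays lay above both non-deprived ones, which was so for 15.1% of all tested probe sets, and for 1 they lay below, which was so for 17.1%. Among the 9 dim probe sets 3 were higher without overlap, against 14.7% of all dim probe sets, and none lower, against 9.75%. Over all 14 probe sets the mean signal was higher in deprived cortex for 9 and lower for 5. A difference of 1.5-fold or more that kept its direction through all 4 pairs was found for no member, and for 1.9% of tested probe sets. At 1.2-fold 1 member, Timp3, met that rule, as did 8.57% of tested probe sets. With 2 arrays per group an exact permutation test cannot give a two-sided p below 0.333 for a single probe set.

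The machinery around the nets was read through 7 further lists of 101 genes, of which 65 had a probe set of their own and 45 a tested one. Of their 56 tested probe sets 0 rose and 0 fell at an adjusted p under 0.05 in limma, 30 lay above and 26 below 0, and the median was 0.01. At an unadjusted p under 0.05 there were 1 higher and 3 lower, against 1.77% and 3.66% of all tested probe sets. From each list the 2 probe sets with the smallest p are named.

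In the list of link proteins, hyaluronan synthesis and other proteoglycans, 6 probe sets were tested, 3 higher and 3 lower, with a median of -0.01. Ptprz1, a receptor phosphatase whose secreted form, phosphacan, is a chondroitin sulfate proteoglycan bound by tenascins, read 189.8 and 351.1 on the deprived and 440.1 and 509.3 on the non-deprived arrays at 92378_at. That was -0.73 ± 0.33 (SE, log2; adjusted p = 0.91), but the other Ptprz1 probe set gave 0.02 ± 0.25. Bgn, the small proteoglycan biglycan, was split in the same way, -0.66 ± 0.30 at 162347_f_at (adjusted p = 0.91) and 0.18 ± 0.26 at the other probe set. The chondroitin sulfate synthesis enzymes were thinly covered, with 2 of 16 genes on the array. Chpf, a polymerising factor for the chain, gave 0.00 ± 0.18, and Chst3, a sulfotransferase, gave -0.53 ± 0.47, where non-deprived array 2 read 610.4 and the other 3 arrays between 172.9 and 281.9.

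Matrix proteases had 9 tested probe sets, 5 higher and 4 lower, with a median of 0.05. Plat, the tissue plasminogen activator, read 650.9 and 640.9 on the deprived and 525.8 and 549.4 on the non-deprived arrays, a log2 fold change of 0.24 ± 0.23 (SE; adjusted p = 0.999). Plau, the urokinase-type activator, gave -0.49 ± 0.47, so the 2 activators did not share a direction and neither passed. Among the other inhibitors, 4 probe sets were tested, 2 in each direction, with a median of 0.04. Timp1, the inducible relative of Timp2 and Timp3, gave -0.29 ± 0.20, and Serpini1, the neuronal plasminogen activator inhibitor neuroserpin, gave 0.20 ± 0.18 (adjusted p = 0.999 for each).

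Matrix receptors and partners had 10 tested probe sets, 6 higher and 4 lower, with a median of 0.03. Itgb1, the integrin beta 1 subunit, read 1527.7 and 1590.4 on the deprived and 1238.6 and 1097 on the non-deprived arrays at 100123_f_at, which gave 0.40 ± 0.18 (SE, log2; adjusted p = 0.91), while the second Itgb1 probe set stood at 0.15 ± 0.26. Itgav, the integrin alpha V subunit, gave -0.89 ± 0.42 at 104385_i_at (adjusted p = 0.92), where deprived array 1 read 144.9 and deprived array 2 465.2, and -0.34 ± 0.19 at the other. Without deprived array 1 these were -0.22 ± 0.31 and -0.59 ± 0.18 (adjusted p = 0.92 and 0.17). Sparcl1 relatives and other matricellular genes had 12, 7 higher and 5 lower, with a median of 0.04. Ccn1, a matricellular gene known to be quickly induced by growth signals, had the smallest p of all 56. It read 192.2 and 162.2 on the deprived and 342.4 and 426.4 on the non-deprived arrays, a log2 fold change of -0.90 ± 0.36 (adjusted p = 0.83). Spock1, which encodes the proteoglycan testican-1, gave -0.30 ± 0.19. The basement membrane list had 13, 6 higher and 7 lower, with a median of -0.04. Its laminin subunits Lamc1 and Lama2 gave -0.95 ± 0.59 and 0.84 ± 0.58, each with SEs above the median of 0.28 over all tested probe sets. Lamc1 read 175.8 and 87.6 on the deprived and 132.1 and 620.8 on the non-deprived arrays, and the groups overlapped. For Lama2 the signals were 258.3 and 170.3 on the deprived and 46.7 and 154.1 on the non-deprived arrays.

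**Figure D4:**
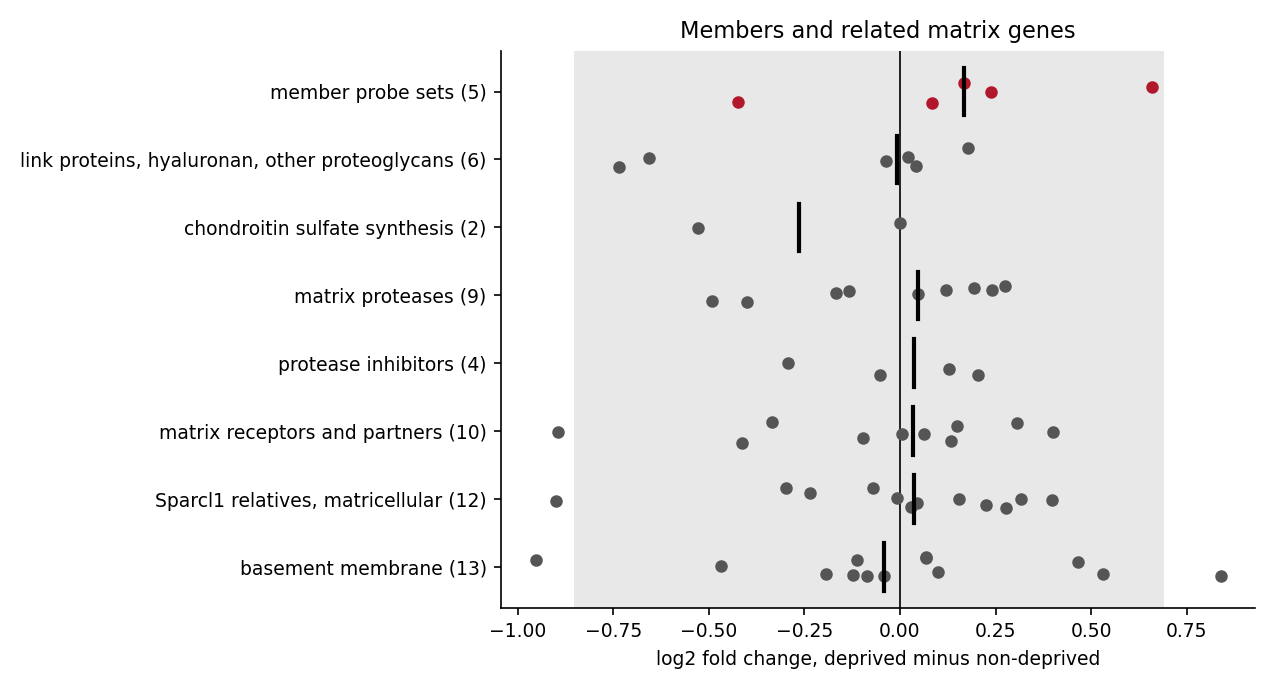
Log2 fold change (x axis, deprived minus non-deprived) of each tested probe set of the members (red) and of the 7 related lists (grey), with the number of probe sets in brackets and the median as a black line; the shaded band holds the middle 95% of all tested probe sets, from -0.85 to 0.69. All 5 members lie inside the band, and list medians lie between -0.26 and 0.17.

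Markers of the cells that make or carry the matrix were read on the same arrays. Of 68 tested marker probe sets in 10 lists 0 passed at an adjusted p under 0.05 in limma. By an unadjusted p under 0.05, 2 were higher and 5 lower, against 1.77% and 3.66% of all tested probe sets. Summed signals of the parvalbumin and other inhibitory neuron list (8 of 9 genes with a probe set) were 16391 and 19586 on the deprived and 19196 and 21084 on the non-deprived arrays, and overlapped. Of its 9 tested probe sets 4 were higher and 5 lower. The Pvalb probe sets disagreed in sign, at -0.17 ± 0.17 (96719_i_at) and 0.62 ± 0.38 (96720_f_at, SE, log2). Summed signals of astrocytes (7 of 8 genes) also overlapped, 16400 and 18024 against 18273 and 16516. So did those of endothelial and mural cells, 1825 and 1408 against 1686 and 2020. Of the 11 tested astrocyte probe sets 4 were higher and 7 lower, with a median log2 fold change of -0.03. Slc1a2 (96202_at) was lower without overlap, 361.9 and 178 against 570.2 and 576.4. Its log2 fold change was -0.997 ± 0.327 (SE; unadjusted p = 0.010, adjusted p = 0.58 in limma). Bright probe sets such as Aldoc (mean signal 8192) weigh most in the astrocyte sum, so it hardly reflects Slc1a2. Oligodendrocyte precursors, which also make lecticans, were slightly lower on both deprived arrays, 2359 and 2339 against 2721 and 2517, with 2 of 5 genes on the array. Markers of meninges (6 of 6 genes) were higher on both deprived arrays, 48369 and 64149 against 43312 and 40285. Most of that sum was Ptgds, a prostaglandin synthase of meninges and oligodendrocytes, and without it the sums were 6731 and 6384 against 6496 and 6338 and overlapped. Of the 8 tested meningeal probe sets, those of Ptgds included, 6 were higher and 2 lower, with a median log2 fold change of 0.26. The neighbouring striatum, thalamus and hippocampus list (5 of 9 genes) was also higher, 2662 and 2457 against 2377 and 2292. No marker probe set of any list was at 0, and the part of these shifts in the values of Timp2, Timp3 and Bcan was not tested.

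RNA integrity was read from the control probe sets, as the 5′ signal over the 3′ signal. For actin this quotient was 0.544 and 0.463 in deprived samples 1 and 2, against 0.638 and 0.632 in the non-deprived samples. For Gapdh it was 0.745 and 0.689 against 0.875 and 1.07. Both ratios were lower on both deprived arrays, the same split as for Bcan, Sparcl1, Timp2 and Timp3, and the part of RNA quality in those values was not tested.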

How the data were processed

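The files hold MAS5 signal intensities, as deposited by the authors and named in the submitters' processing notes; they are linear, with 1 value for each probe set and array. Version, scaling target and detection calls are not given in the sources used here. Of 12488 probe sets, 66 of them controls, 10855 had 1 gene symbol in the platform table, 396 had several and 1237 had none. Entrez identifiers in RefSeq's GRCm38.p6 gene table brought 10839 symbols up to date, and 16 were kept. Probe positions were not used here.

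Arrays were brought to a common 2% trimmed mean and log2(signal + 60.6) was taken, the constant being the 20th percentile of mean signals, so differences of dim probe sets are understated. Controls were dropped, as were probe sets whose mean signal was under 142.9, the 40th percentile. The 7458 that remained were fitted in limma 3.58.1 (R 4.3.3; lmFit, then eBayes with trend), deprived minus non-deprived, two-sided, adjusted by Benjamini-Hochberg at 0.05, with 2 residual degrees of freedom and 11.6 with the prior. Precision is limited by how few arrays there are. The fit was also run on simulated arrays with independent noise and planted changes. Those arrays hold no pairing and no outlying array, so that run cannot show how the fit handles either.

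The design text contrasts same-numbered with cross-animal comparisons, so arrays of 1 number were read as coming from the same animals. Their deviations from the group means correlated with r = 0.27. The replicate block was an alternative, beside other scalings, pseudocounts, filters and each array left out. Printed SEs, intervals and p-values ignore this pairing unless the block is named. With the block in limma the unadjusted p was 0.011 for Timp3 and 0.027 for Timp2, and the adjusted p 0.35 and 0.46. The members and lists were chosen with earlier results of these data known. Named are all members and, from each related list, the 2 tested probe sets with the smallest p, whatever it was, with any other tested probe set of those genes. Fos and the 5′ and 3′ controls of actin and Gapdh served as checks, and Ptgds, Slc1a2 and Pvalb were named after their values were seen.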

Additional observations from a re-analysis of the deposited data

How the results depend on the processing

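No member probe set passed under any alternative fitted, with the smallest adjusted p at 0.060 for Timp3 without deprived array 2 and at 0.35 with the replicate block, so the block changed no call of a member. Over the 5 tested members, 64 alternative values kept their direction and their side of the threshold and 1 reversed: Ncan gave -0.16 without deprived array 2 and 0.33 without deprived array 1. Many of these values could not turn. A changed dim filter, the replicate block and a fit without a variance trend leave each log2 fold change as it was. Signals used as deposited hardly alter it. The count of members at an unadjusted p under 0.05, 2 as reported, ran from 0 to 2. The values of Acan, Tnc and Itgav without deprived array 1 were added after the data were seen. The members' median ran from 0.12 to 0.23 over all alternatives. The 8 probe sets called over the whole array became 3 with arrays scaled to a common median, 1 after quantile normalization, 40 with the replicate block, 0 without a variance trend (390 at an unadjusted p under 0.05), 27 at an adjusted p of 0.2, and from 6 to 92 with 1 array left out; there the lone array is assumed to vary like the other group. The 142 probe sets at least 1.5-fold apart in all pairs numbered 80 when the pseudocount was raised to the 40th percentile, 261 with no dim filter, 60 when the filter stood at the 60th percentile, 639 for 1.2-fold, 30 for 2-fold, 263 when only same-numbered pairs counted, and from 411 to 913 with 1 array left out, since fewer pairs had to agree. For the members that count of 0 became 1, Timp3, at a fold of 1.2, and ran from 0 to 1 with 1 array left out. Apart from these rules' own construction the cause was not tested. Low signal limits Acan, Vcan, Hapln1 and Tnc, which had no probe set bright enough to test.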
